A study of Mus musculus with 6 samples.

Results

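The genes described here code for 9 cytokines, listed as factors by which 4T1 tumors may act on myeloid cells. These are Csf1, Csf2 and Csf3 (colony-stimulating factors), Il6, Lif and Il11 (IL6 family), and Il1a, Il1b and Il33 (IL1 family). They were taken by name and matched through their Ensembl identifiers to a table of 53465 genes, and all 9 were found. Of these, 5 had enough counts to be among the 13550 genes tested for a difference between the lines, and 4 did not. The rule that names the 9 uses no measured value, although earlier results of these data were known when it was written.

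4T1 cells come from a mouse mammary carcinoma that spreads to the lung in Balb/c mice. RNA sequencing was available for 3 libraries of the parental line (P) and 3 of the axitinib-resistant line (AxR). Axitinib is an inhibitor of the VEGF receptor tyrosine kinases. To obtain AxR cells, orthotopic 4T1 tumors were grown in mice given 100 mg/kg/day axitinib, treatment went on after the primary tumor was removed, and cells from metastatic lesions were then kept in culture with 0.5 μM axitinib for over 2 months. P cells, described as vehicle-treated, did not go through this selection, and both lines were grown in RPMI with 5% FBS. The growth protocol in the labels names the drug for all 6 libraries, whereas the series' design text gives it for AxR cells alone, so whether P medium held axitinib is unresolved. AxR differs from P in drug exposure, passage through a mouse and outgrowth from a metastasis, and these cannot be told apart here. The 3 libraries of a line are not stated to come from separate cultures, so p-values measure the spread between libraries, which may be technical.

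Csf1, Csf2 and Csf3 code for M-CSF, GM-CSF and G-CSF, which drive the growth and maturation of macrophages, of granulocytes with macrophages and dendritic cells, and of neutrophils, respectively. IL6, LIF and IL11 each bind a different receptor chain and signal through the shared subunit gp130 (Il6st) to JAK kinases and STAT3. IL1α (Il1a) and IL1β (Il1b) act on the same receptor, IL1R1, together with the accessory chain IL1RAP, and activate NF-κB and AP-1, and IL33 acts on ST2 (Il1rl1). 4T1 tumors are known for the marked granulocyte expansion that they cause in mice, for which tumor-derived G-CSF is a known driver.

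The promoters of the rising gene Csf1 and of the falling genes Lif and Il1a are shown. These are the cytokines called different between the lines that had a promoter entry, while Csf3, also called lower, had none. Each run is the 250 bases before the RefSeq transcription start on the gene's own strand (GRCm38.p6), with matches to the searched motifs in capitals. Csf1 lies on the minus strand and its run covers chr3:107760470-107760719. The run of Lif, on the plus strand, covers chr11:4257318-4257567. That of Il1a, on the minus strand, covers chr2:129309973-129310222.
Csf1: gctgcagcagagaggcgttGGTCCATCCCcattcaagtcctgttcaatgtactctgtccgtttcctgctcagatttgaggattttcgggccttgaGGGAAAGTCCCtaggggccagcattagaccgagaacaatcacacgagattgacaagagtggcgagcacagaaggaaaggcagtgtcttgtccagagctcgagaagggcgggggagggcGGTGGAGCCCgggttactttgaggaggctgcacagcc
Lif: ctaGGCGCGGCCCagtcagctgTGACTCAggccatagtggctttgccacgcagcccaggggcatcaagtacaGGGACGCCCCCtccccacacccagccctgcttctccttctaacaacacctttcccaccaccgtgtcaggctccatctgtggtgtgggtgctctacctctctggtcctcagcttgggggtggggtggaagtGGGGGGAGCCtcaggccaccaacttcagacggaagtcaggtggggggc
Il1a: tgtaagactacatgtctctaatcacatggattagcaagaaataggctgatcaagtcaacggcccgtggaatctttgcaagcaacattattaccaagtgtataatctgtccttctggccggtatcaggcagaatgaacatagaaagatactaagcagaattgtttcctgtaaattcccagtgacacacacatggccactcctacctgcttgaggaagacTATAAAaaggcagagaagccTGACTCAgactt

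Searched on both strands were an NF-κB motif (GGG, then any 5 bases, then CC), an AP-1 motif (TGANTCA), a C/EBP motif (TTGCNNCAA), a STAT motif (TTCNNNGAA) and the TATA box (TATAAA). Positions give the first base of a match and count back from -1, the base before the start. Il1a held a TATA box at -32 and an AP-1 motif at -12. Lif held an AP-1 motif at -228 and NF-κB matches at -247, -178, -177 and -48, of which the middle pair overlap. In Csf1, NF-κB matches lay at -231, -155, -154 and -37, again with an overlapping middle pair. Among 32851 promoters of this length, 45.8% held the NF-κB motif, 6.75% the AP-1 motif and 12.4% the TATA box. C/EBP and STAT motifs, present in 1.74% and 7.02% of all promoters, were not found in the promoter entries of the cytokines. Such matches describe letters and not bound sites. Promoter entries were found for 8 of the 9 genes, and Csf3 had none.

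Levels are given as CPM, the estimated counts scaled to the normalized library size, or as RPKM, CPM per kb of exon, where genes are compared with each other. Csf1 rose in AxR cells, Csf3, Lif and Il1a fell, and Il11 did not pass the test (edgeR quasi-likelihood F test, Benjamini-Hochberg adjusted p under 0.05). That is 1 gene higher and 3 lower of the 5 tested, against 32.8% of all tested genes called higher and 30.8% called lower. Counting calls in either direction, 63.5% of tested genes passed, so 4 of 5 is close to the background and says nothing particular about these cytokines. The size of the change sets them apart from each other more than the calls do, from a 1.70-fold rise in Csf1 to a 14.0-fold fall in Il1a. Among all tested genes, 12.7% passed the test with a log2 fold change of at least 1 in either direction, and among the cytokines Lif and Il1a did so.

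**Figure D1:**
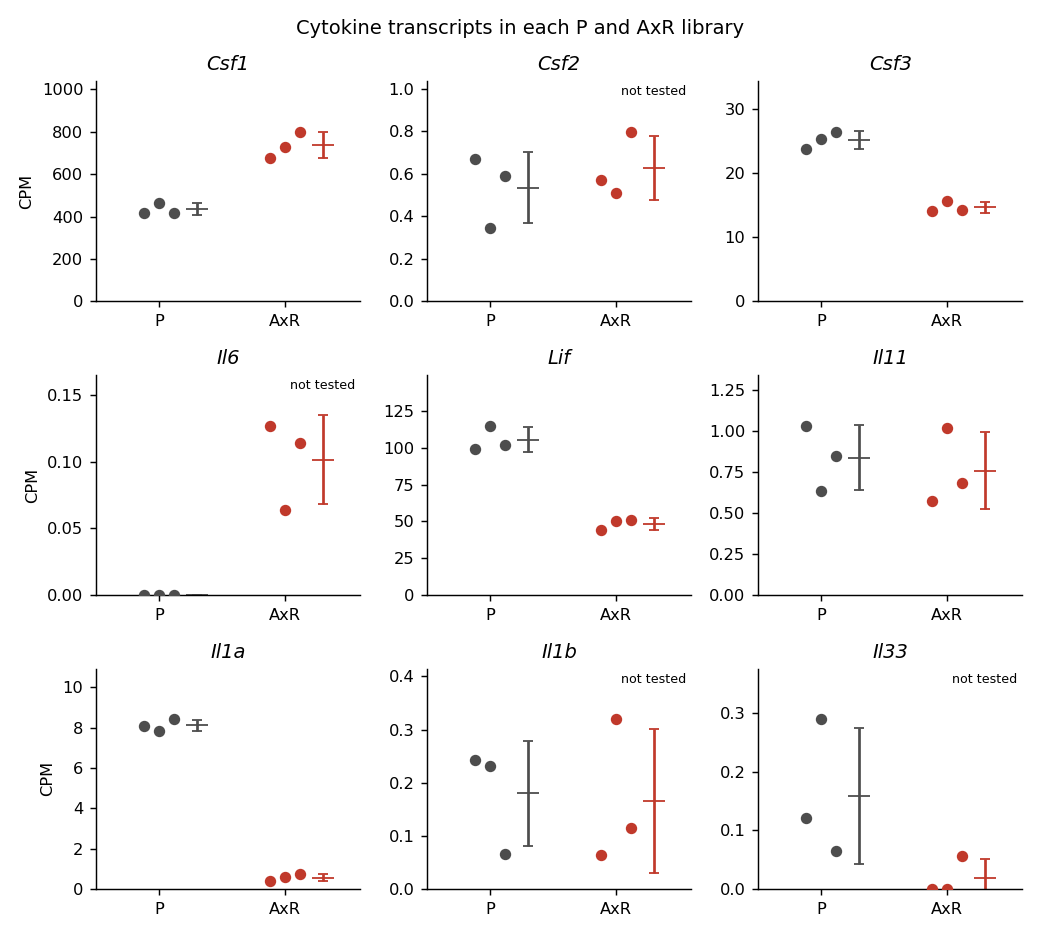
CPM of each cytokine transcript in the 3 P (grey) and 3 AxR (red) libraries, with the mean and SD beside the points. Each panel has its own vertical axis from 0. Csf1 lay at 416.8 to 466.1 CPM in P and 677.4 to 799.8 in AxR, while Il1a lay at 7.85 to 8.41 in P and 0.381 to 0.73 in AxR; genes marked as not tested had too few counts.

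Csf1 (ENSMUSG00000014599.10, chr3:107741048-107760469, minus strand) was the most abundant of the cytokines in both lines. It measured 418.9, 466.1 and 416.8 CPM in the 3 P libraries and 677.4, 730 and 799.8 CPM in the 3 AxR libraries. Every AxR library lay above every P library. The mean went from 434 ± 27.9 (SD, n = 3) to 735.7 ± 61.4 CPM (SD, n = 3), a log2 fold change of 0.76 (SE 0.063, edgeR adjusted p = 9.73e-08). Only 2.27% of tested genes had a higher CPM than Csf1 in P, and 0.841% in AxR, a ranking that is not corrected for gene length.

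Csf3 (ENSMUSG00000038067.2, chr11:98701263-98703629, plus strand) moved the other way. P libraries held 23.77, 25.4 and 26.47 CPM and AxR libraries 14.1, 15.69 and 14.22 CPM, with no overlap. The log2 fold change was -0.78 (SE 0.081, edgeR adjusted p = 7.61e-07), a 1.72-fold fall from a mean of 25.2 ± 1.36 to 14.7 ± 0.884 CPM (SD, n = 3 each). Because M-CSF and G-CSF transcripts changed in opposite directions, the RPKM ratio of Csf1 to Csf3 went from 4.61 ± 0.359 in P to 13.5 ± 1.4 in AxR (SD, n = 3 each), and was 4.91 at most in P and 12.5 at least in AxR.

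Csf2 (ENSMUSG00000018916.5, chr11) was barely detected, with 11, 6 and 9 estimated counts in P and 9, 8 and 14 in AxR. The lines overlapped, and the gene did not pass the low-count filter. Depth limited the comparison: the ratio of depth-scaled counts, AxR over P, was 1.20 with a 95% interval of 0.687 to 2.10 (conditional exact binomial), which covers counting error only, as do all such intervals and floors here. An antisense gene, Gm12223, overlaps Csf2. The libraries were stranded, but the strand setting of the counting is not given in the sources used here, so reads of the 2 genes may not be separate.

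Lif (ENSMUSG00000034394.14, chr11:4257557-4272514, plus strand) was the most abundant IL6 family ligand of the 3 and fell. It measured 99.38, 114.9 and 102 CPM in P against 43.88, 50.51 and 50.8 CPM in AxR. No AxR library came near the P range. The mean dropped from 105.4 ± 8.31 to 48.4 ± 3.91 CPM (SD, n = 3 each), with a log2 fold change of -1.12 (SE 0.071, edgeR adjusted p = 3.76e-09). LIF is best known for keeping mouse embryonic stem cells undifferentiated and is made by many carcinoma lines.

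Il11 (ENSMUSG00000004371.14, chr7), a cytokine with roles in bone metastasis and fibrosis, stayed near 1 CPM or below. The counts were 17, 11 and 13 in P and 9, 16 and 12 in AxR, and the lines overlapped. Its log2 fold change was -0.14 with a 95% interval of -0.90 to 0.61 (edgeR adjusted p = 0.742). No change was called, and a change in either direction within these limits remains possible. Without P replicate 1 the estimate was 0.041, and without AxR replicate 1 it was 0.019.

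Il6 itself was almost unmeasured. No count was assigned in any of the 3 P libraries, and 2, 1 and 2 counts were assigned in AxR. All 6 values are at or under 3 counts, the most that a count of 0 allows and equal to 0.171 to 0.196 CPM depending on the library, so no fold change is given.

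Il1a (ENSMUSG00000027399.1, chr2:129299610-129309972, minus strand) showed the largest change of the 5 tested cytokines. The estimated counts were 132.95, 135.87 and 128.95 in P and 6, 9 and 12.84 in AxR. In CPM these were 8.08, 7.85 and 8.41 in P and 0.381, 0.574 and 0.73 in AxR, so that the highest AxR library stayed far below the lowest P library. The mean fell from 8.11 ± 0.283 to 0.562 ± 0.175 CPM (SD, n = 3 each), with a log2 fold change of -3.81 (SE 0.209, 95% interval -4.26 to -3.37, edgeR adjusted p = 6.48e-10). Of the 13550 tested genes, 215 had a larger absolute log2 fold change. A gene on the opposite strand, Gm14023, overlaps Il1a, and as for Csf2 reads of the pair may not be separate, which also bears on the size of this fall.

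Il1b and Il33 were near the floor in both lines. Il1b had 4, 4 and 1 counts in P and 1, 5 and 2 in AxR, a depth-scaled ratio of 0.891 (95% interval 0.299 to 2.6). Its overlapping antisense gene Il1bos carries the same caution as Gm12223. Il33 had 2, 5 and 1 counts in P and 0, 0 and 1 in AxR, a ratio of 0.125 (95% interval 0.00282 to 0.934) that rests on a total of 8 counts against 1. Without the low-count filter, edgeR gave adjusted p-values of 0.737 for Csf2, 0.0918 for Il6, 0.918 for Il1b and 0.119 for Il33, so none of these 4 passed.

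An exact permutation test over the 6 libraries, two-sided, on log2 (CPM + 0.5) cannot give a p below 0.1 with 3 against 3. Csf1, Csf3, Lif and Il1a reached this smallest value, as did Il6 and Il33. Il6 was separated by 1 count, and Il33 only by the scaling for depth, since P replicate 3 and AxR replicate 3 both had 1 count. In CPM the lines did not overlap for these 6 of 9 genes, of which 4 were tested, against 68.2% of all tested genes.

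Per kb of exon, Il1a lay above Csf2 and Il11 in P, but in AxR it lay below Csf2 and overlapped the range of Il11. The order in P was Csf1 (82.2 RPKM), Lif (24.2), Csf3 (17.8), Il1a (4.11), Csf2 (0.667) and Il11 (0.403), with Il1b, Il33 and Il6 below 0.1 RPKM. Ranges over libraries separated each of the first 4 from the next, whereas Csf2 overlapped Il11 and Il1b overlapped Il33. The order in AxR was Csf1 (139.3 RPKM), Lif (11.1), Csf3 (10.4), Csf2 (0.783), Il11 (0.364) and Il1a (0.285). There, Lif overlapped Csf3 and Il11 overlapped Il1a. Csf1 made up 63.4% of the summed RPKM of the 9 genes in P and 85.8% in AxR. The RPKM ratio of Csf1 to Lif was 3.39 ± 0.0692 in P and 12.5 ± 0.554 in AxR (SD, n = 3 each), and that of Csf3 to Lif was 0.739 ± 0.0593 in P and 0.936 ± 0.066 in AxR.

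**Figure D2:**
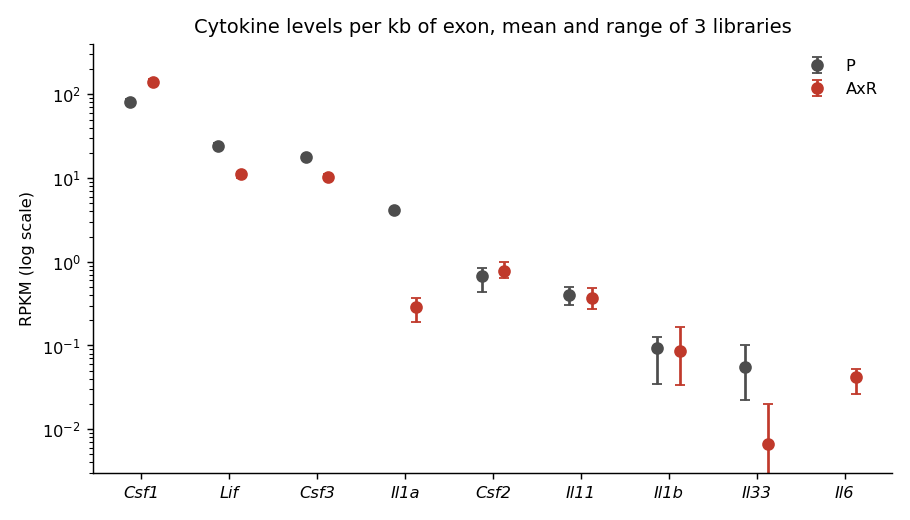
RPKM of the 9 cytokine transcripts on a log axis, in the order of P, with points for the mean and bars for the range of 3 libraries in P (grey) and AxR (red). Il6 in P is at 0 and cannot be drawn, and the lower bar of Il33 in AxR runs off the axis because 2 libraries were at 0. Csf1 stands at 82.2 RPKM in P and 139.3 in AxR, and Il1a falls from 4.11 to 0.285.

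The genes around each cytokine were compared with it, because a change shared with neighbors differs from a change of a single gene. Csf1 rose together with its neighborhood. Within 500 kb, 17 other genes were tested, 16 of them were called higher in AxR and 1, Amigo1, lower (-0.26), and their median log2 fold change was 1.20, above the 0.76 of Csf1. The nearby Ahcyl1 rose by 1.22 and the glutathione transferase gene Gstm2 by 2.69 on the log2 scale, and the highest was 4933431E20Rik at 2.74. In steps of 2 Mb from the lower coordinate of Csf1, the 17 tested genes just below it had a median of 0.95. The 30 genes just above, Csf1 included, had 0.90, while the 29 genes in the step below the 17 had 0.18. Above the 30 genes, the next 2 steps held only 2 tested genes each (medians 0.53 and 0.60). The 23 genes between 8 and 10 Mb above had a median of 0.68, so higher values were not limited to the genes nearest to Csf1. Nor was the rise unbroken, since the step from 6 to 8 Mb above held 1 tested gene, at -2.75. On the lower side, medians were -0.0038 from -6 to -4 Mb (15 genes), 0.37 from -8 to -6 Mb (10 genes) and 0.19 from -10 to -8 Mb (9 genes). Chromosome 3 as a whole had a median of 0.32 over 717 tested genes, with 57.2% called higher and 11% lower. The part of this regional rise in the Csf1 value was not tested. Gene copy number was not measured in these libraries.

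Il1a and Lif fell further than any tested neighbor within 500 kb, whereas Csf3 did not. The median log2 fold change within 500 kb was -0.36 around Il1a (13 genes, 2 higher and 7 lower), -0.048 around Lif (14 genes, 3 higher and 2 lower) and -0.074 around Csf3 (22 genes, 6 higher and 6 lower). Next to Il1a, Ckap2l rose by 0.49, and the lowest neighbor, Zc3h8, was at -0.91 against -3.81 for Il1a. Around Lif the lowest neighbor, Zmat5, was at -0.59 against -1.12. Around Csf3, the circadian repressor gene Nr1d1 fell further than Csf3 itself, with a log2 fold change of -1.296. Chromosomes 2 and 11 had medians of -0.093 and 0.0077.

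**Figure D3:**
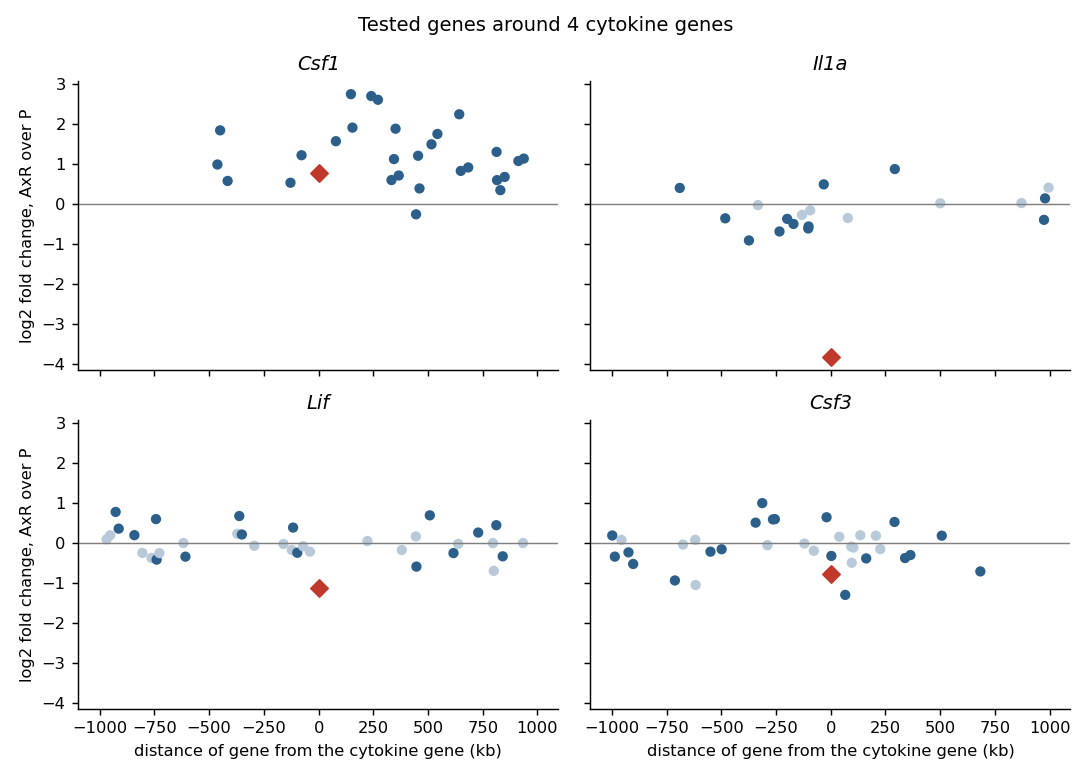
Log2 fold change (AxR over P) of tested genes within 1 Mb of Csf1, Il1a, Lif and Csf3, against distance in kb; the cytokine is the red diamond, and dark blue points passed the adjusted p of 0.05. Nearly all neighbors of Csf1 lie above 0, and the points around Il1a all lie far above its -3.81.

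The 6-library profile of Il1a was compared with all tested genes by Pearson correlation of log2 CPM. Those most like it were Dmtf1, Sbds, Coq10b, Pla2g7 and Nsd3, with r between 0.99923 and 0.99976. With 3 libraries on each side such values mostly state the difference between the lines, and 452 genes (3.34%) had r above 0.99. All 5 fell by less than Il1a, with log2 fold changes from -0.58 for Nsd3 to -2.86 for Pla2g7.

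Other ligands of the same families were read from lists beside the cytokines. In the IL6 family, Clcf1, a ligand that signals through the CNTF receptor, fell from 25.03 to 18.69 CPM (log2 fold change -0.43, edgeR adjusted p = 0.00235). Cntf (0.12) and Ctf1 (0.27) did not pass, and the oncostatin M gene Osm had 0 counts in all 6 libraries. In the IL1 family, the receptor antagonist gene Il1rn had 0 counts in each P library and 5, 7 and 9 in AxR. Its AxR mean of 0.425 CPM was 2.17 times the highest floor of 3 counts per library (0.196 CPM). Il1rn had too few counts to be tested. Il18 was at 0.63 and did not pass (edgeR adjusted p = 0.0614).

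The other myeloid and hematopoietic growth factors with enough counts were 4 genes, of which 3 fell and none rose. Among all tested genes, 30.8% were called lower and 32.8% higher. Il34, the second ligand of the M-CSF receptor, measured 23.64, 22.4 and 23.02 CPM in P and 12.64, 15.37 and 15.99 CPM in AxR. It fell by 0.65 on the log2 scale (edgeR adjusted p = 1.71e-05) while Csf1 rose, and the RPKM ratio of Csf1 to Il34 went from 7 ± 0.624 to 18.7 ± 1.14 (SD, n = 3 each). Kitl, which codes for stem cell factor, fell from 86.8 to 56.5 CPM (-0.62), and Tslp, an epithelial cytokine that acts on dendritic cells, from 11.0 to 8.05 CPM (-0.44). Flt3l stood at 0.028 and did not pass.

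Receptors for the colony-stimulating factors were close to absent from these cells. Csf2ra and Csf3r had 0 counts in all 6 libraries, and Csf1r, Csf2rb and Csf2rb2 had at most 5 counts in any. None of the 5 was tested.

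Receptors of the IL6 family were present and moved in both directions, with 2 higher, 2 lower and 1 not called of 5 tested. The LIF receptor gene Lifr had 74, 61 and 66 counts in P and 5, 0 and 4 in AxR, a log2 fold change of -4.43 (SE 0.398, edgeR adjusted p = 1.65e-07), the largest among the receptors tested. Ligand and receptor transcripts of LIF were thus both lower in AxR. The shared subunit Il6st measured 327.4, 314.6 and 318.2 CPM in P and 308.9, 309.9 and 350.4 in AxR, and its log2 fold change of 0.014 did not pass (adjusted p = 0.842). Il11ra1 rose from 1.55 to 4.33 CPM (1.48) and Il6ra from 25.9 to 32.7 CPM (0.34). Osmr, the oncostatin M receptor gene, was at -0.22 with an adjusted p of 0.0484 in edgeR, a call that was lost under 7 of 13 alternatives.

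Both chains of the IL1 receptor fell along with Il1a. Il1r1 measured 28.99, 31.93 and 30.32 CPM in P and 12.32, 13.01 and 12.52 CPM in AxR, and the lines did not overlap. The log2 fold change was -1.27 (SE 0.077, edgeR adjusted p = 2.03e-09). Il1rap went from 39.7 to 17.9 CPM (-1.15, SE 0.073, adjusted p = 3.29e-09). In contrast, Sigirr, an inhibitory member of the receptor family, rose by 0.32 and Il18rap, a chain of the IL18 receptor, by 0.60. The remaining 4 receptor genes of this family were not tested, among them Il1rl1, the IL33 receptor gene, with 5, 1 and 2 counts in P and 10, 9 and 8 in AxR.

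**Figure D4:**
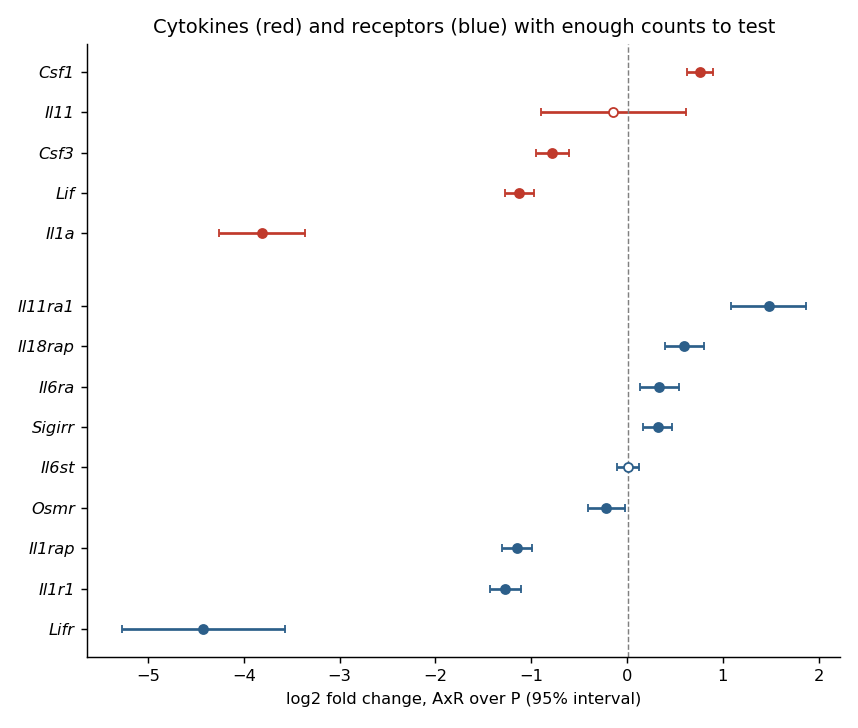
Log2 fold change (AxR over P) with 95% intervals for the 5 tested cytokines (red) and 9 tested receptors (blue); open points did not pass the adjusted p of 0.05, and the dashed line is the median of all tested genes. Il1a and Lifr lie furthest to the left at -3.81 and -4.43, and Il11ra1 furthest to the right at 1.48.

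Signaling genes downstream of these receptors were split between rises and falls. Of 10 tested JAK and STAT genes, 5 rose and 3 fell. Stat2 (1.79) and Stat5a (1.55), transducers of interferon and growth factor signals, rose, and Stat3 (-0.35), Jak2 (-0.31) and Stat5b (-0.15) fell. Of 14 feedback and STAT3 target genes, 6 rose and 6 fell. The feedback inhibitor genes Socs2 (-1.53) and Socs3 (-0.58) and the STAT3 target Myc (-0.89) fell, and the phosphatase gene Ptpn6 (1.95), Cebpd (1.17) and Bcl3 (0.59) rose. The calls of Stat5b and Bcl3 were lost under 7 and 5 of 13 alternatives.

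Of 13 tested genes of IL1 receptor signaling, 5 rose and 2 fell, with log2 fold changes within 0.6 of 0. Tab2 (0.58), Tab1 (0.51) and Ikbkg (0.50) rose, and the IκB kinase genes Ikbkb (-0.41) and Chuk (-0.18) fell. Of 7 tested genes of IL1 maturation and release, 3 rose and 3 fell. Casp1, the protease that matures IL1β, went from 0.634 to 3.80 CPM (2.57, edgeR adjusted p = 9.42e-07), the pore-forming gasdermin gene Gsdmd rose by 1.47 and Casp4 by 0.62. Casp8 (-0.69) and the calpain genes Capn2 (-0.25) and Capn1 (-0.14), which code for proteases able to cut pro-IL1α, fell, and the Capn1 call was lost under 8 of 13 alternatives. Nlrp3, Nlrc4 and Aim2 were among the 7 genes of this list with too few counts.

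Of 21 tested factors known to bind cytokine promoters, 8 rose and 10 fell. The AP-1 subunit genes Fosl1 (-1.65) and Jun (-0.77) fell, and Fosb (1.31) rose. Ets1 (-0.69) fell, and Irf1 (1.42) and again Cebpd rose. Fosl1 went from 222.6 ± 16.5 to 71 ± 9.47 CPM (SD, n = 3 each; edgeR adjusted p = 1.64e-08). Of 11 genes that bind or cut cytokine mRNAs, 3 rose and 2 fell, none by more than the 0.54 of Khsrp. Zfp36l1 (0.22) and Rc3h1 (0.19) rose and Zfp36l2 (-0.19) and Tial1 (-0.13) fell, although Rc3h1 and Tial1 lost their calls under 4 and 8 of 13 alternatives. Taking all of these lists and counting a gene once, 92 of 128 genes were tested, 33 rose, 34 fell and 25 did not pass. Their median log2 fold change was 0.022, beside 0.0058 for all tested genes. Of all tested genes, 32.8% were called higher and 30.8% lower, the shares beside which each list count is read.

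**Figure D5:**
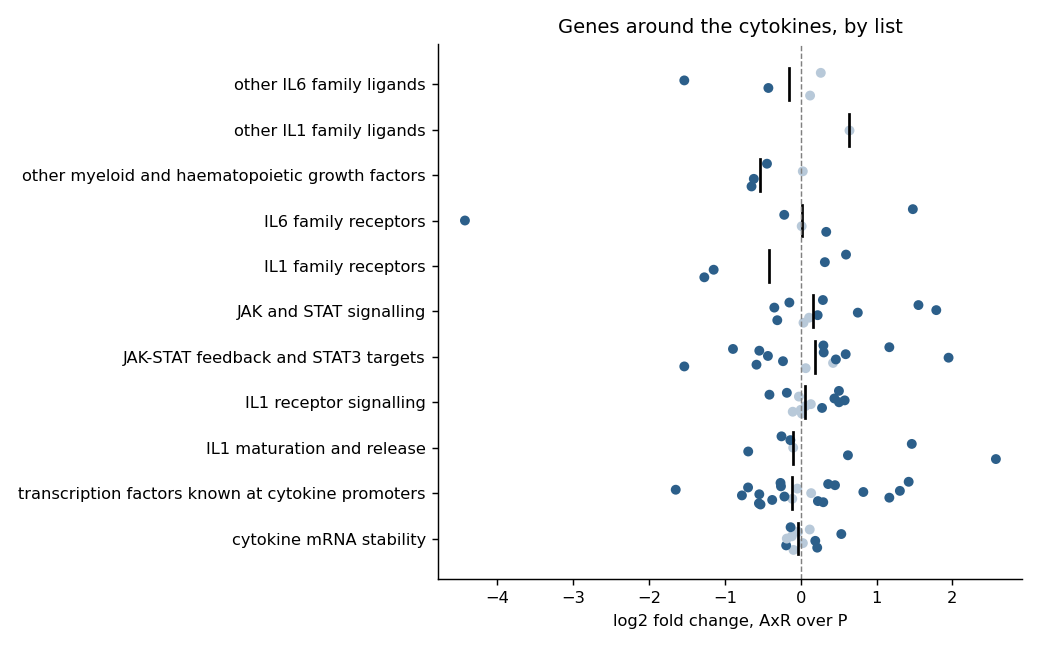
Log2 fold change (AxR over P) of the tested genes in each list beside the cytokines. Dark points passed the adjusted p of 0.05, light points did not, black bars are list medians and the dashed line is the median of all tested genes. Points lie on both sides of 0 in every list drawn except the other IL1 family ligands, which hold 1 tested gene, and Lifr at -4.43 and Casp1 at 2.57 are the extremes.

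Markers of other cells were examined because cytokines are also made by stroma and leukocytes, and because fewer cells of a type and less RNA per cell cannot be told apart in bulk RNA. Of 14 leukocyte markers, 7 were at 0 in every library, including Tyrobp, Fcer1g and Adgre1, and Ptprc had at most 2 counts. Their summed level was 5.93 to 6.47 CPM in P and 25 to 35.6 in AxR, nearly all of it Cd74, and without Cd74 it was 0.196 to 0.462 in P and 0.127 to 0.446 in AxR. Col3a1, Lum and Thy1 of 10 fibroblast markers were at 0, and the sum without Postn was 0.577 to 0.973 CPM in P and 0.797 to 1.4 in AxR. Postn alone brought the sum to 8.93 to 11.7 in P and 258 to 285 in AxR. Endothelial markers summed to 0.425 to 0.693 CPM in P and 0.191 to 0.383 in AxR, with Kdr, Emcn, Cldn5 and Erg at 0. Lung epithelial markers, with Scgb1a1 and Nkx2-1 at 0, summed to 0.577 to 1.15 CPM in P and 4.15 to 4.21 in AxR, most of it Foxj1. Epithelial markers summed to 2139 to 2359 CPM in P and 3218 to 3396 in AxR, and Krt5 was at 0. Of the 9 tested, 6 rose and 3 fell, the latter being Cldn7 (-3.43), Krt19 (-1.31) and Cldn4 (-0.17). The part of Cd74, Postn and Foxj1 in the cytokine differences was not tested.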

How the data were processed

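RNA of 3 P and 3 AxR libraries was sequenced from stranded, poly(A)-selected libraries. The authors aligned reads to GRCm38 with STAR 2.6.0a, quantified genes with RSEM 1.3.1 and deposited estimated counts per gene, before any filter or normalization. RSEM shares ambiguous reads among genes, so estimated counts need not be whole. Depth was 15495260 to 17294525 per library. Replicates of a line differed by more than sampling noise (chi-square per degree of freedom 4.99 to 19.3).

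Rounded counts passed the filterByExpr filter, received upper quartile factors and were tested in edgeR 4.0.16 (quasi-likelihood F test, robust, line as the only term), with Benjamini-Hochberg adjustment over 13550 genes. Alternatives used limma 3.58.1 and DESeq2 1.42.0. Symbols came from GENCODE M21 (53274 of 53465 identifiers) and promoters from RefSeq. The tests were tried on simulated counts. Genes named beside the cytokines were all tested receptors and, in other lists, up to 3 rising and 3 falling genes with the largest log2 fold change at 1 CPM or more; all were named where counts were 5 or fewer. Some genes that this rule names are not reported here. Neighbors, markers, ligands that did not pass and genes with too few counts were named in addition, after their values were seen. The cytokines and lists were chosen with earlier results of these data known.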

Additional observations from a re-analysis of the deposited data

How the results depend on the processing

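The counts of calls and the log2 fold changes of the 5 tested cytokines and 60 other genes were recomputed with limma-voom, DESeq2, TMM factors, library size only, no low-count filter, at least 10 counts in every library, the replicate number as a block, each library left out in turn, and stricter thresholds. Csf1 stayed between 0.70 and 0.82 on the log2 scale, Csf3 between -0.83 and -0.74, Lif between -1.16 and -1.05 and Il1a between -4.06 and -3.60, and all 4 passed the adjusted p of 0.05 in every fit that held them. The minimum of 10 counts in every library removed Il1a and Il11, which left 2 cytokines lower. With single libraries left out, Il11 ranged from -0.40 to 0.041 (positive without P replicate 1 and, at 0.019, without AxR replicate 1), Flt3l from -0.085 to 0.16 (negative in the same fits, at -0.056 without AxR replicate 1) and Il6st from -0.047, without AxR replicate 3, to 0.049. Il6st was also at -0.0063 with library size only. None of these 3 passed in any fit. Il18 passed in 3 of 13 fits. Of the 60 other genes, Osmr, Stat5b, Bcl3, Chuk, Capn1, Rc3h1, Tial1 and Amigo1 lost their call in at least 1 fit. Requiring a log2 fold change of at least 1 left 0 cytokines higher, 1083 genes higher and 640 lower of all tested, and 9 higher and 6 lower in the lists.

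Same-numbered libraries of the lines did not deviate together (correlations of -0.021, -0.0061 and -0.022). No pairing by number was thus seen, and the labels do not state whether such libraries were handled together. With the replicate block, 1 cytokine was higher and 3 lower, and 4304 and 4023 of all genes.

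Medians of lists, regions and chromosomes, ratios, correlations and marker sums were not recomputed. Csf2, Il6, Il1b and Il33 had too few counts for the filter and did not pass without it.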
